A study of Mus musculus with 14 samples.

Results

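The passage from day 4 (d4) to day 6 (d6) of embryoid body (EB) differentiation was examined in the shDIS3L2 line, which stably expresses an shRNA against Dis3l2. An EB is a floating aggregate in which mouse embryonic stem cells (mESCs) differentiate spontaneously. The comparison used 2 of the 14 libraries of the series, the shDIS3L2 libraries of d4 and d6, taken by the line and day in their labels because this line had the larger step in earlier results of these data, and the other 12 served as its setting. The control line expresses an shRNA against LacZ (shLacZ), a bacterial gene with no counterpart in mice. Both lines were made from mESCs with a green fluorescent reporter of Osr1, were kept with LIF and 2i, the inhibitors that hold the undifferentiated state, until d0, and were then aggregated in hanging drops and moved to suspension culture in serum without LIF and 2i. Each line was sequenced at d0, 2, 4, 6, 8, 10 and 12, with 1 library of PolyA+ RNA per line and day. The design has 1 knockdown line, with 1 library a day made from whole aggregates of mixed cells, so neither the spread between cultures nor the cell of origin of a transcript was measured.

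DIS3L2 is an exoribonuclease that degrades RNAs carrying a tail of uridines at the 3′ end, among them the precursor of let-7 microRNA in stem cells. In EBs, as in the gastrulating embryo, cells leave the epiblast through the primitive streak, where Nodal, Wnt and FGF signals act, and the mesoderm that emerges gives rise to blood, endothelium, heart and mesenchyme. Hox genes are then switched on in the order in which they lie along their clusters, and yolk sac blood makes embryonic globins.

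At d4 and d6, 20695661 and 10610122 reads were counted on genes in the shDIS3L2 libraries, and 7178712 and 13304344 in those of shLacZ. Levels are given as counts per library total (CPM, counts scaled to a total of 1000000). A count of 3, taken as the floor for a gene listed at 0, was worth 0.145 CPM in shDIS3L2 at d4 and 0.283 CPM at d6. The fold of a gene is the ratio of its CPM at d6 and d4, followed in brackets by its 95% Clopper-Pearson interval, which covers counting error only, since no molecular identifiers that separate PCR copies from molecules are described. With 1 library a side, no difference was tested. "Rose" and "fell" are used only of protein-coding genes at least 3-fold higher or lower at d6 that reached 1 CPM in either library. Of the 50686 genes in the count table, 21939 were protein-coding and 13237 passed this CPM filter in the shDIS3L2 step.

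Dis3l2, the gene targeted (chr1:86703808-87050095, GRCm38), stood at 3.93, 4.44, 7.05, 13.1, 19.6, 18.3 and 14.9 CPM in shDIS3L2 from d0 to d12, and at 28.7, 15.8, 22, 23.8, 20.2, 19.3 and 19.7 CPM in shLacZ. Its CPM was lower in shDIS3L2 on each of the 7 days, by the widest margin at d0 and by the narrowest at d8. At d8 and d10 the lines were close, at 19.6 against 20.2 CPM and 18.3 against 19.3 CPM. No interval is given for these differences, so a lower level on those days is not established. From d4 to d6, 146 and 139 reads in shDIS3L2 gave a fold of 1.86 (1.46 to 2.36), and the shLacZ fold was 1.08 (0.889 to 1.31). The level of the targeted RNA in the shDIS3L2 line was therefore not the same at both ends of the step. Of 12 genes of uridylation and RNA decay, which included the paralog Dis3 and the uridylyltransferase gene Zcchc11, none rose or fell in either line. Lin28a, which encodes the protein that brings uridylyltransferase to let-7 precursors, went from 680 to 320 CPM in shDIS3L2, short of the 3-fold criterion.

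In the shDIS3L2 step, 1101 genes rose, which is 8.32% of those compared, and 1005 fell, which is 7.59%. In shLacZ, 635 of 13280 genes rose (4.78%) and 771 fell (5.81%). These percentages are the background against which the counts of each gene group are given. The median log2 fold over all genes compared was −0.05 in shDIS3L2 and −0.06 in shLacZ, and the median size of the log2 fold, without its sign, was 0.53 and 0.40. Folds of at least 10 were a minority of the shDIS3L2 calls and were more numerous than in shLacZ. A fold of at least 10 was found for 392 genes upwards and 298 downwards, against 118 and 145 in shLacZ, and a fold of at least 100 for 67 and 38, against 12 and 2. The genes that rose took 1.05% of the shDIS3L2 reads at d4 and 7.27% at d6, and those that fell took 3.18% and 0.529%. Depth differed between the libraries compared, and with every library thinned to the same number of reads 1114 genes rose and 1044 fell. The counts at folds of 10 and 100 were not repeated on thinned reads. At d4 shLacZ had fewer reads than shDIS3L2, which limits how large a rise from few reads can be, and at d6 it had more. The part of depth in the contrast of large folds between the lines was not tested.

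Along the shDIS3L2 course, 4500 genes rose and 1373 fell from d0 to d2, 979 and 1177 from d2 to d4, and 861 and 194 from d6 to d8. The step from d4 to d6 was the last in which rises and falls were of like number, and 377 genes rose and 103 fell from d8 to d10 and 225 and 45 from d10 to d12. Of the 1101 genes that rose, 321 had their highest CPM of the line at d6 itself, 258 at d8, 229 at d10 and 230 at d12. Of the 1005 that fell, 372 were highest at d4, 360 at d2 and 170 at d0. A further 9, 26 and 68 were highest at d8, d10 and d12. The falling genes were therefore mostly, but not all, transcripts of d4 and of earlier days.

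**Figure D1:**
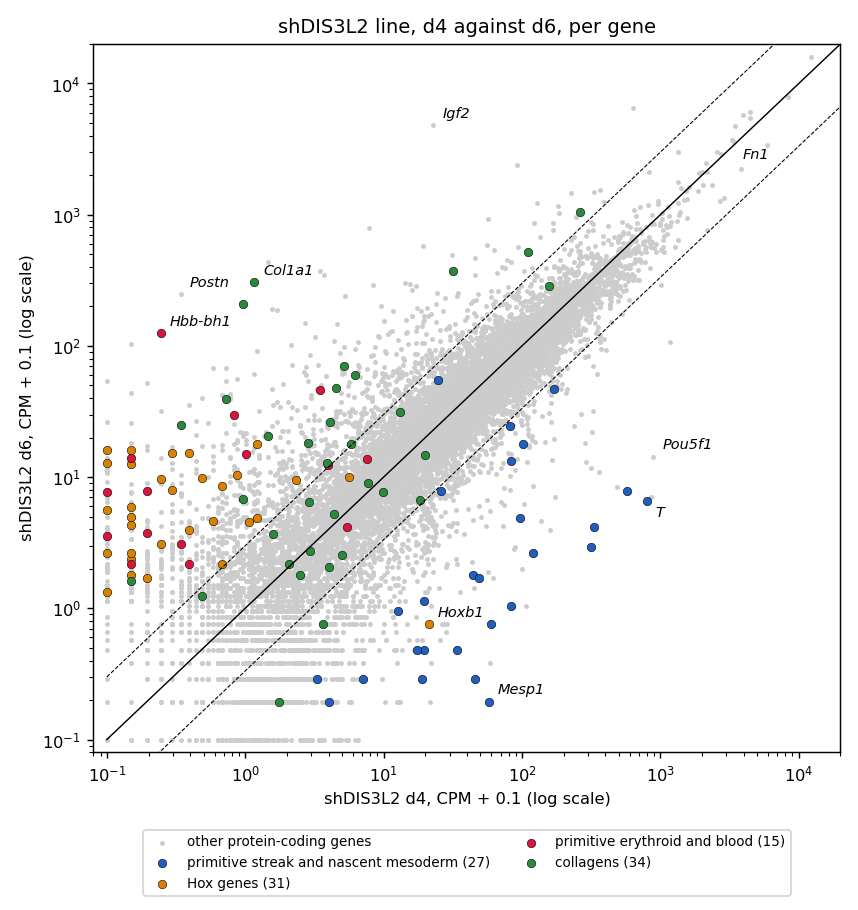
CPM at d4 (x axis) against CPM at d6 (y axis) in the shDIS3L2 line, both plus 0.1 on log scales, 1 point per protein-coding gene compared in at least 1 line. Coloured points are the members of 4 lists that were compared, the solid line marks equal values and the dashed lines 3-fold differences. The streak genes lie below the lower dashed line apart from Cdx2, and the Hox genes lie above the upper one apart from Hoxb1 and Hoxb2.

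Streak and nascent mesoderm genes fell almost as a whole. Of 29 members, 27 were compared, 26 fell and none rose, with a median log2 fold of −5.16, and the summed CPM of the list went from 3192 to 203. T, the founding T-box factor of the streak (chr17:8434423-8442496), stood at 795 CPM at d4 and 6.50 at d6, 122-fold lower (96.6 to 157). Eomes, the T-box factor of cardiac mesoderm and definitive endoderm, went from 571 to 7.73 CPM, 73.9-fold lower (59.5 to 93.0). At d2, T had been at 0.561 CPM and Eomes at 11.5 CPM, and d4 was the peak of both in the line. In shLacZ, T went from 486 to 29.9 CPM and Eomes from 300.2 to 37.0.

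Mesp1, which marks the earliest cardiovascular mesoderm, had 1194 reads at d4 and 1 at d6, or 57.7 and 0.0942 CPM, a ratio of 612 with an interval from 109.7 to 24198. Mixl1, a homeobox gene of the streak, went from 329 to 4.05 CPM and Lhx1, a LIM homeobox gene of anterior mesendoderm, from 316 to 2.83 CPM. Genes of the presomitic branch were among them: Msgn1 went from 17.2 to 0.377 CPM, Dll3 from 59.8 to 0.660 and Dll1, its fellow Notch ligand, from 48.9 to 1.6. Cdx2, a caudal factor of the posterior streak, was the member that did not fall, at 24.8 CPM at d4 and 55.3 at d6, a fold of 2.23 (1.98 to 2.52). In a bulk library, fewer cells of a type and less RNA per cell cannot be told apart.

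The signals of the streak fell with its transcription factors. Of 14 Nodal pathway genes compared, 7 fell and none rose, with a median of −1.86. The gene lists share some members, and Tdgf1 is counted under the pluripotency genes as well. Nodal itself, the ligand, went from 97.0 to 4.81 CPM, 20.2-fold lower (15.3 to 27.2), and its co-receptor Tdgf1 from 855 to 6.97 CPM, 123-fold lower (97.6 to 156). The feedback inhibitors of Nodal fell too, Lefty1 from 12.5 to 0.848 CPM and Lefty2 from 44.3 to 1.70 CPM. In the control line the Lefty genes showed no such change, with Lefty1 at 10.3 and 7.22 CPM and Lefty2 at 15.3 and 15.7 CPM. Lefty1 and Lefty2 are close paralogs, and how reads shared by both were counted is not given in the sources used here.

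FGF signalling showed falls of ligands and of the usual readouts of ERK activity, with rises of receptors. Of 22 genes compared, 11 fell and 3 rose, with a median of −1.56. Among the ligands Fgf8 went from 938 reads (45.3 CPM) to 2 reads (0.188 CPM) and Fgf5 from 107 to 0.942 CPM, 114-fold lower (61.6 to 237). Dusp6, a phosphatase induced by ERK, went from 265 to 30.3 CPM, and Etv4, Etv5, Spry2 and Spry4 fell as well. The genes that rose were Fgfr2, Fgfr3 and Fgfr4, with Fgfr2 at 8.55 and 97.2 CPM. Fgfr1 was at 270.0 and 202 CPM, a fold of 0.749.

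Of 24 Wnt genes compared, 5 fell and 3 rose. Wnt8a, a ligand of the streak, fell from 58.9 to 0.283 CPM, and Frzb, a secreted Wnt antagonist, from 164 to 13.4 CPM. Wnt5a, a ligand that mostly acts without β-catenin, rose from 42.7 to 211 CPM. Axin2, a general readout of β-catenin signalling, was at 135 and 54.0 CPM and did not reach 3-fold.

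BMP genes went the other way, with 9 of 21 rising and 2 falling, against 7 and 2 of 21 in shLacZ. The shDIS3L2 median log2 fold was 1.12. Of the ligands, Bmp4 stood at 10.1 and 92 CPM, Bmp2 at 6.47 and 70.9 CPM and Bmp5 at 2.56 and 63.2 CPM, folds of 9.15 (7.87 to 10.7), 10.9 (9.10 to 13.3) and 24.7 (18.7 to 33.3). The target and inhibitor genes Id2, Smad6 and Bambi rose 6.14-fold, 6.31-fold and 7.94-fold. Chrd, which encodes the BMP antagonist chordin, fell from 24.5 to 2.92 CPM, and Grem1 from 34 reads to 0. Id1, another BMP target, stood at 55.6 and 61.6 CPM, a fold of 1.11. Of the other pathways listed, 5 of 14 Notch genes fell and 2 rose, 5 of 14 retinoic acid genes rose and 2 fell (Cyp26a1, which breaks retinoic acid down, fell from 161 to 26.4 CPM), and 1 of 10 Hedgehog genes rose and 2 fell.

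**Figure D2:**
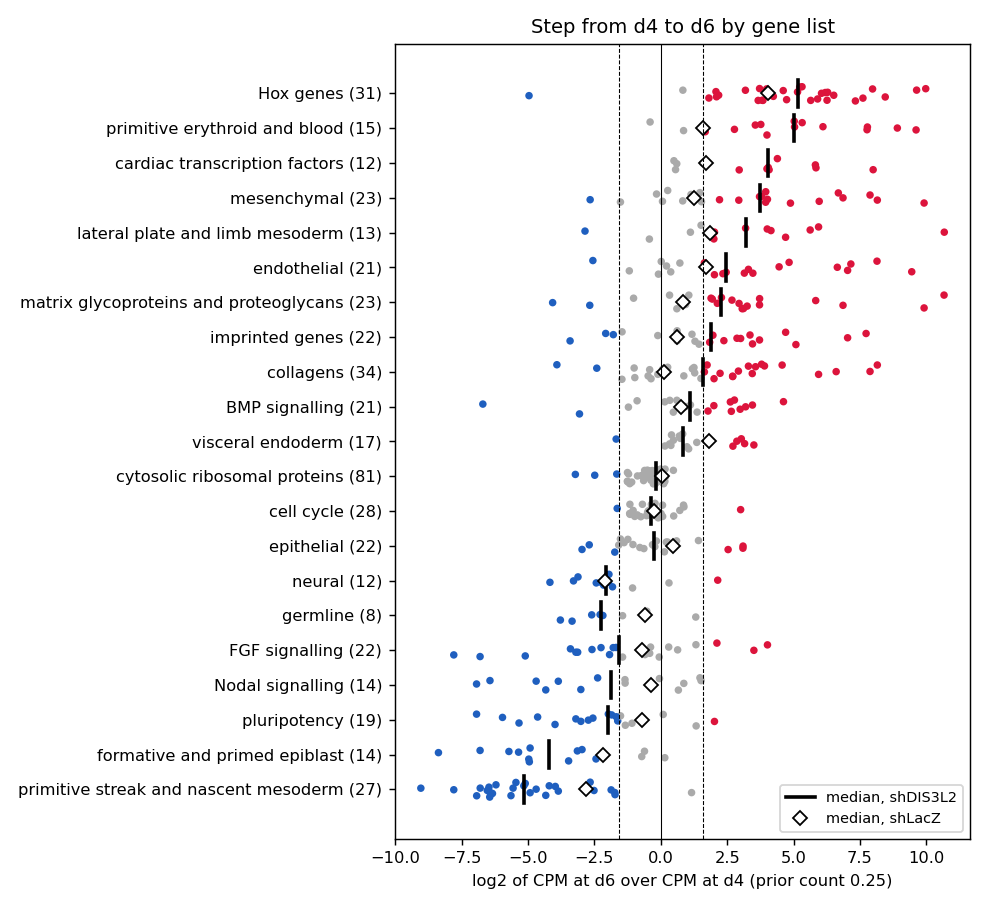
Log2 fold from d4 to d6 in shDIS3L2 for the members compared of 21 gene lists, 1 point per gene, red where the gene rose, blue where it fell and grey otherwise. The bar is the shDIS3L2 median, the open diamond the shLacZ median over the members compared in that line, and the dashed lines mark 3-fold. Medians in shDIS3L2 run from −5.16 for streak genes to 5.15 for Hox genes.

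Pluripotency and epiblast genes fell in the same interval. Of 19 pluripotency genes compared 13 fell and 1 rose, and of 14 formative and primed epiblast genes 11 fell and none rose, with medians of −1.98 and −4.19. Pou5f1, the POU factor at the centre of the pluripotency network, had 18338 reads at d4 and 151 at d6, which are 886 and 14.2 CPM, 62.3-fold lower (53.0 to 73.6). Its level in shLacZ was 740.2 CPM at d4 and 117 at d6, so the shDIS3L2 library held the higher value at d4 and the lower at d6. Nanog went from 174 to 6.97 CPM in shDIS3L2 and from 169 to 43.0 in shLacZ.

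Zfp42 and Dppa5a, markers of the naive state, fell from 16 to 5.18 CPM and from 33.8 to 10.6 CPM in shDIS3L2, where their shLacZ values were 48.9 and 65.6 CPM and 57.3 and 79.7 CPM. Of the 19 pluripotency genes compared in both lines, 18 had the lower fold in shDIS3L2. The share of all genes with the lower fold in shDIS3L2 was not counted. The member that rose was Tbx3, at 38.7 and 157 CPM, a T-box gene that mesoderm expresses as well. The summed CPM of the list in shDIS3L2 went from 3102 to 587 within the step, and its values on the 3 later days were 403, 503 and 801, so it was lowest at d8 and above its d6 value only at d12. Pou5f1 stood at 18.5 CPM at d8 and 86.2 at d12, and Nanog at 10.5 and 50.4 CPM.

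Among the epiblast genes, Otx2 went from 100 to 1.88 CPM, 53.0-fold lower (34.3 to 87.0), and Zic2 from 159 to 3.86 CPM. Dnmt3b, a de novo DNA methyltransferase of the epiblast, fell from 1180.3 to 107 CPM and its relative Dnmt3a did not reach 3-fold, at 158 and 95.9 CPM. Pim2, a kinase gene, and Slc27a2, a fatty acid transporter gene, were also among the 15 largest falls, with Pim2 at 488 and 8.29 CPM. Of 8 germline genes compared, 5 fell, among them Ddx4 (10.6 to 2.17 CPM), and in shLacZ 1 of 10 rose and none fell. The summed CPM of the list did not fall, at 85.8 and 99.4 in shDIS3L2 and 96.3 and 135.4 in shLacZ.

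The blood genes are shown with their promoters because embryonic globins and the haem enzyme gene rose together in this step. The 120 bases before the start site are given below in RefSeq sequence (GRCm38.p6), 5′ to 3′ on the strand of the gene, in lower case. Capitals mark matches on either strand to AGATAA (bound by GATA factors), CACCC (KLF and SP factors) or TATAAA (the TATA box), and CACGTG (the E-box) was also searched. The genes are Hba-x (chr11:32276480-32276599, plus strand), Hbb-y (chr7:103853208-103853327, minus strand), Alas2 (chrX:150547297-150547416, plus strand) and Gata1 (chrX:7967911-7968030, minus strand).

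Hba-x: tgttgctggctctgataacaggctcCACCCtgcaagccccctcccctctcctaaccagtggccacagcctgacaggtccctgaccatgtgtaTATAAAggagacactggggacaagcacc
Hbb-y: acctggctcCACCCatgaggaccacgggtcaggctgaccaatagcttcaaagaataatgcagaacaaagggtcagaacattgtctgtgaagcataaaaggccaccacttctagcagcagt
Alas2: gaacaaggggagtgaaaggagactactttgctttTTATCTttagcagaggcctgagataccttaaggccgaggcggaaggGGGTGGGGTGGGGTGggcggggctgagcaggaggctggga
Gata1: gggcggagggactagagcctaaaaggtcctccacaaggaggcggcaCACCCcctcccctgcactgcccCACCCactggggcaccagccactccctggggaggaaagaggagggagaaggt

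In Hba-x, the ζ-like embryonic α-globin gene, CACCC starts 95 bases and TATAAA 28 bases before the start site. In Alas2, the erythroid gene of the first enzyme of haem synthesis, AGATAA is read on the opposite strand as TTATCT, 86 bases before the start, and 3 opposite CACCC matches adjoin each other as a run of GGGTG. Over 250 bases before the start, 4 of 19 promoters of 15 blood genes matched held AGATAA (21.1%, against 9.99% of all 32851 promoters), 13 held CACCC (68.4% against 52.0%), 3 held TATAAA (15.8% against 12.4%) and 1 held CACGTG (5.26% against 6.02%). For 25 promoters of 22 streak genes, the shares in that order were 8.00%, 44.0%, 12.0% and 0, and for 24 promoters of 22 Hox genes 0, 62.5%, 16.7% and 16.7%. No motif used here overlaps another in its letters, and a match says only that the letters are present. Only these exact letters were searched, so a variant such as the tgataa in the Hba-x stretch was neither marked nor counted.

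Of 22 blood genes, 15 were compared in shDIS3L2 and 13 rose, with a median log2 fold of 5.02, or 4.59 with genes listed at 0 set to the floor, against 7 of 14 in shLacZ. Hbb-bh1, the embryonic β-like globin of yolk sac erythroid cells, had 3 reads at d4 and 1333 at d6, or 0.145 and 126 CPM, 867-fold higher (296 to 4208). Hbb-y, a neighbouring embryonic globin gene, had 0 and 81 reads, at least 52.7-fold higher against the floor. Its shLacZ level was 2.93 CPM at d4 and 2.63 at d6. Hba-x had 1 read at d4 and 148 at d6, 13.9 CPM, and stood at 14.7 CPM in shLacZ at d6. The adult α-globin genes Hba-a1 and Hba-a2 rose as well, but they are near-identical copies whose reads may have been split between them.

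The regulators of blood formation rose from low levels. Tal1, the basic helix-loop-helix factor required for blood, went from 0.725 to 29.6 CPM, 40.8-fold higher (24.4 to 73.8), and Runx1, needed for definitive blood, from 3.38 to 46.2 CPM, 13.7-fold higher (10.6 to 17.8). Gata1, the GATA factor of the erythroid line, had 6 reads at d4 and 22 at d6, a fold of 7.15 (2.81 to 21.6). Klf1, its erythroid partner, had 6 reads at both days and did not pass the CPM filter. Lmo2 was at 7.54 and 13.7 CPM and did not reach 3-fold. Ptprc, the pan-leukocyte marker, had 0 reads in shDIS3L2 at both days, and Spi1, the myeloid factor, had 2 and 1. The globins peaked later than d6, with Hbb-bh1 at 453 CPM and Hbb-y at 589 CPM in shDIS3L2 at d8 and at 11.1 and 13.4 CPM at d12.

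Of 21 endothelial genes, all compared, 14 rose and 1 fell, with a median of 2.46. Cdh5, the cadherin of endothelial junctions, went from 0.387 to 40.2 CPM, 104-fold higher (52.4 to 243), and Pecam1 from 1.79 to 51.3 CPM, 28.7-fold higher (20.5 to 41.2). The angiopoietin receptor gene Tek went from 3.24 to 71.3 CPM, and Erg, an ETS factor, from 0 to 118 reads, at least 76.7-fold higher. Kdr and Flt1, the VEGF receptors that appear before the others in mesoderm, were already at 115 and 54.3 CPM at d4 and at 134 and 70.4 CPM at d6, folds of 1.16 and 1.30. Robo4 was the gene that fell, from 59 reads to 5. The same list held 13 rises among 20 genes compared in shLacZ.

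Heart and lateral plate regulators rose, whereas the contractile genes of cardiac muscle were mixed. Of 12 cardiac transcription factor genes compared, 8 rose and none fell, against 5 and none of 10 in shLacZ. Of 13 lateral plate and limb genes 9 rose and 1 fell, against 8 and 1 of 13 in shLacZ. The shDIS3L2 medians were 4.02 and 3.19. Hand1, a factor of extraembryonic mesoderm and heart, went from 14.3 to 299 CPM, 21-fold higher (18.6 to 23.7), and Hand2 from 1.06 to 60.9 CPM. Tbx20 went from 11.6 to 185 CPM, 16-fold higher (14 to 18.3). Foxf1, a forkhead factor of lateral plate mesoderm, went from 2.66 to 69.4 CPM, and Tbx4, a T-box gene of hindlimb and allantois, from 2.03 to 101 CPM. Pitx1, which specifies hindlimb identity, had 0 reads at d4 and 276 at d6, at least 179-fold higher. Nkx2-5, the early cardiac homeobox gene, had 4 and 8 reads, and Gata4 was at 69.9 and 98.5 CPM.

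Of the 20 sarcomere and membrane genes of the heart, 13 were compared, 6 rose and 3 fell. Tnni1, a slow troponin gene, had 3 reads at d4 and 148 at d6, and Tnnc1 went from 1.69 to 33.9 CPM. Myl7, the atrial myosin light chain gene, fell from 72 reads to 4 and Ttn from 83 to 12. In the mesoderm of the trunk, only 2 of 16 paraxial and somite genes passed the filter, Foxc1, which fell from 7.44 to 1.51 CPM, and Ripply1, which rose from 0.290 to 3.49 CPM. Of 12 intermediate mesoderm and nephron progenitor genes compared, 4 rose and 3 fell. Sall1 fell from 213 to 46.6 CPM and Six2 from 15 to 3.20 CPM, and 3 of the 4 that rose were Hox11 genes. Osr1, whose reporter the cells carry, had 1 read at d4 and 4 at d6.

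**Figure D3:**
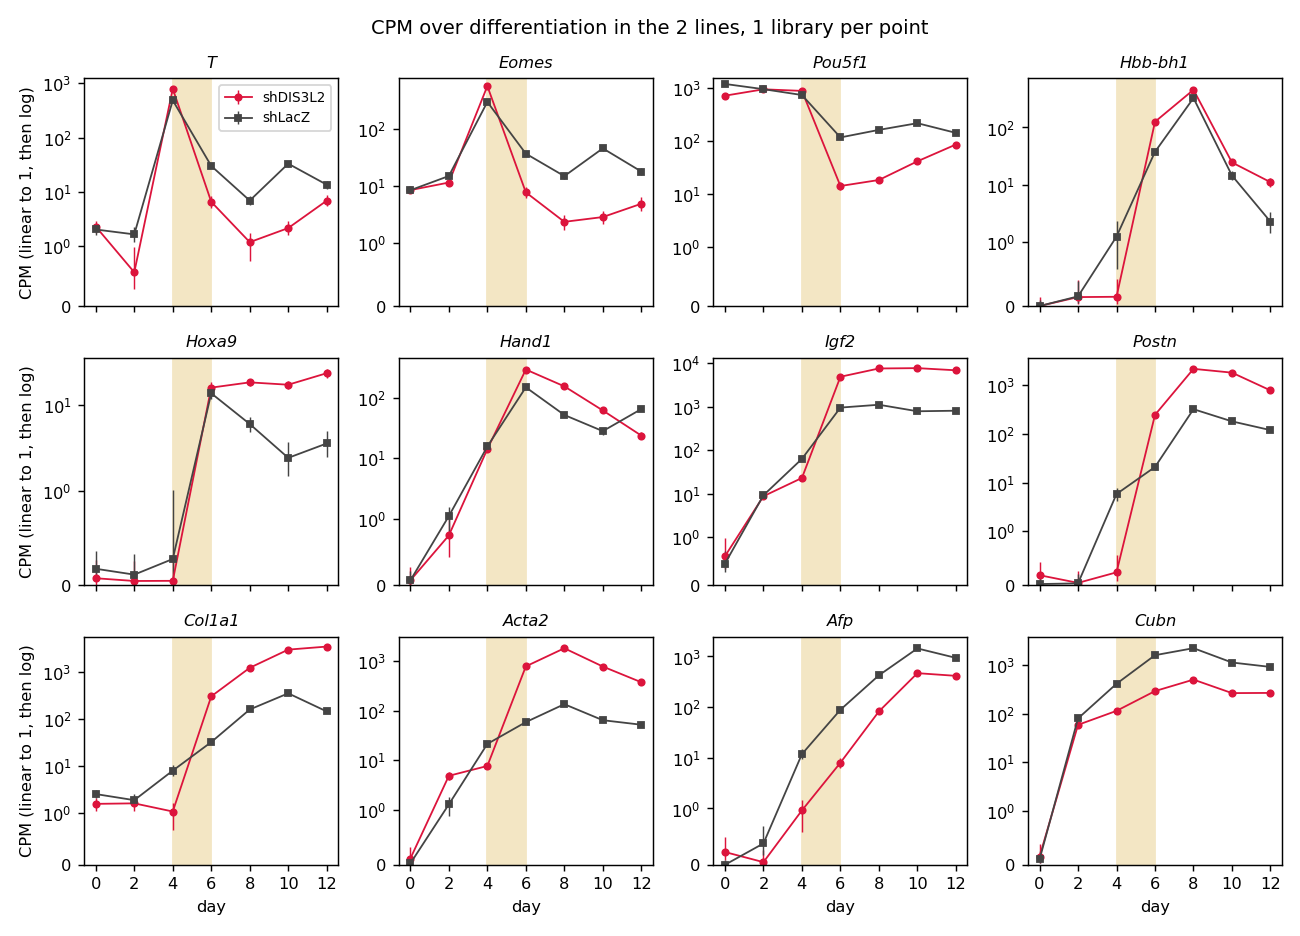
CPM (y axis, linear to 1 and logarithmic above) of 12 genes by day (x axis) in shDIS3L2 (red circles) and shLacZ (grey squares), 1 library per point, with 95% Poisson intervals of the counts as bars and the step from d4 to d6 shaded. T and Eomes peak at d4 in both lines, and Igf2, Postn, Col1a1 and Acta2 cross from below to above shLacZ within the shaded step.

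Hox genes had the highest list median. Of 39 members 31 were compared, 29 rose and 1 fell, with a median log2 fold of 5.15, or 4.61 with genes listed at 0 set to the floor. The summed CPM of paralog groups 1 to 3, at the 3′ end of the clusters, was 31.6 at d4 and 36.6 at d6. Groups 4 to 8 went from 2.22 to 77.9 CPM and groups 9 to 13 from 3.82 to 113 CPM. Of the 8 genes of groups 1 to 3, 4 rose and 1 fell, and most of their summed CPM at d4 came from Hoxb1 alone. None of the genes of groups 4 to 13 fell.

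Hoxb1, an early 3′ gene, was the member that fell, from 21 to 0.660 CPM, 31.9-fold lower (15.3 to 79.7), and Hoxb2 beside it stood at 5.56 and 9.90 CPM. Hoxa9 had 1 read at d4 and 171 at d6, and Hoxd9 0 and 170, at least 111-fold higher. Hoxb6 had 0 and 134 reads, at least 87.1-fold higher, and Hoxa13, at the 5′ end of its cluster, went from 1.11 to 17.8 CPM. The Hoxa cluster was uneven: Hoxa2 to Hoxa6 had at most 3 reads each at d6, whereas Hoxa7 and Hoxa9 to Hoxa13 rose. Several Hox gene models overlap their neighbours, and whether strand was used in counting is not given in the sources used here, so reads could not be assigned with certainty between those genes. In shLacZ 25 of 30 Hox genes rose and 1 fell. From d6 to d12 Hoxa9 stayed near its level in shDIS3L2, at 18.6 CPM at d8 and 23.8 at d12, and in shLacZ it went from 13.8 CPM at d6 to 6.03 and 3.57.

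**Figure D4:**
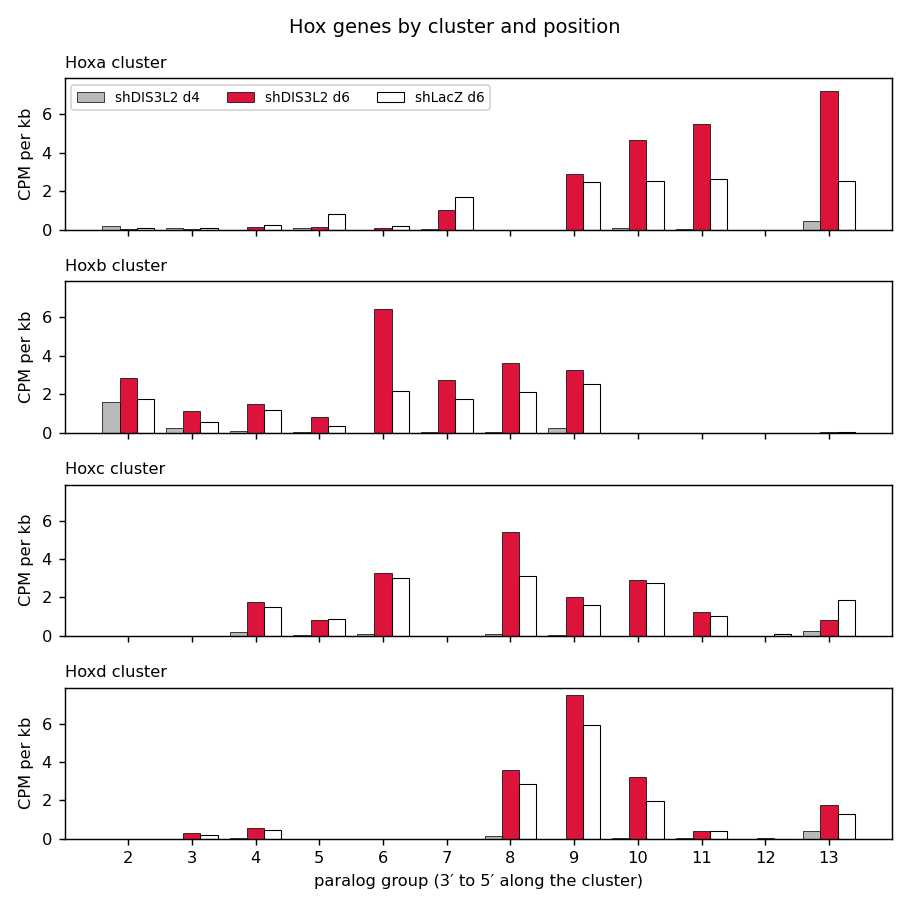
CPM per kilobase of gene model (y axis) of the Hox genes of paralog groups 2 to 13 (x axis, ordered from the 3′ to the 5′ end) in each of the 4 clusters, with grey bars for shDIS3L2 at d4, red for shDIS3L2 at d6 and open bars for shLacZ at d6. The bars of groups 4 to 13 are near 0 at d4, and those of groups 4 to 13 that rose stand above them at d6.

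Mesenchymal and matrix genes contained the largest rises of the step. Of 23 mesenchymal genes compared 14 rose and 1 fell, and of 23 matrix glycoprotein and proteoglycan genes 15 rose and 2 fell, with medians of 3.72 and 2.28 against 1.25 and 0.84 in shLacZ. Postn, which encodes the matricellular protein periostin (chr3:54361109-54391037), had 5 reads at d4 and 2630 at d6, or 0.242 and 248 CPM, 1026-fold higher (439 to 3162). In shLacZ it stood at 5.85 CPM at d4 and 21 at d6, 3.60-fold higher (2.59 to 5.10). The shDIS3L2 library was thus below shLacZ at d4 and above it at d6.

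Col1a1 and Col3a1, fibrillar collagens of connective tissue, followed the same path. Col1a1 went from 1.06 to 306 CPM, 288-fold higher (190.1 to 461), and Col3a1 from 0.870 to 208 CPM, 239-fold higher (151 to 404), with shLacZ at 7.94 and 32.3 CPM and at 12.3 and 43.4 CPM. Acta2, the smooth muscle actin gene, went from 7.68 to 791 CPM, 103-fold higher (88 to 121), against 21.5 and 59.2 CPM in shLacZ. Of 34 collagen genes compared 17 rose and 2 fell in shDIS3L2, and of 33 in shLacZ 10 rose and 4 fell. Most of the summed collagen CPM came later: in shDIS3L2 it was 697 at d4, 3187 at d6 and 31182 at d12. In shLacZ the sum was 1406, 5405 and 27550 on those days, so it was the higher at d4 and d6.

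Regulators of the mesenchymal state divided by time of use. Snai1, which represses E-cadherin in the streak, fell from 83.4 to 13.2 CPM, while its paralog Snai2 rose from 0.676 to 43.2 CPM and Zeb1 from 6.14 to 94.8 CPM. Vim, the intermediate filament gene of mesenchyme, rose from 166 to 769.5 CPM, and Fn1, the fibronectin gene, was at 3406 and 3558 CPM, a fold of 1.04. Of 22 epithelial genes 3 rose and 3 fell. The keratin genes Krt8, Krt18 and Krt19 were those that rose, with Krt8 at 77.5 and 449 CPM, and the epithelial splicing factor gene Esrp1 fell from 113 to 17.4 CPM. Cdh1, the E-cadherin gene, was at 524 and 175 CPM, just short of the criterion.

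Further members of the 15 largest rises were Hapln1, which encodes a link protein of hyaluronan matrix and had 1 read at d4 and 1105 at d6, and Adam12, a metalloprotease gene with 2 and 555 reads. Tdo2, which encodes a tryptophan-degrading enzyme, had 0 and 570 reads, at least 371-fold higher. Itga4, the α4 integrin subunit, went from 1.45 to 193 CPM, 133-fold higher (92.8 to 197), and Ednrb, an endothelin receptor, from 1 read to 271. Ctla2a, a protease inhibitor gene with a close paralog, had 1 and 465 reads. The last of the 15, Igf1, is described with its axis. Of the gene families, 4 of 17 integrin subunits rose and 1 fell. Among 11 laminin chains 4 rose and 1 fell (Lama4 went from 2.61 to 149 CPM). Only 8 of 23 claudins and 8 of 66 histone genes passed the CPM filter, and 3 of each rose. The histone list summed to only 23.3 CPM at d4 and 35.1 at d6.

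Of 15 genes of the insulin-like growth factor axis compared, 6 rose and 1 fell, with a median log2 fold of 0.89, and Igf2 took most of the summed CPM of the list at d6. Igf2, the fetal growth factor expressed from the paternal copy (chr7:142650766-142666816), had 472 reads at d4 and 51302 at d6, or 22.8 and 4835 CPM, 212-fold higher (194 to 233), against 62.7 and 946 CPM in shLacZ. H19, the non-coding RNA of the maternal copy at the same locus (chr7:142575529-142578143), went from 59.0 to 7013 CPM, 119-fold higher (112 to 126), against 222 and 3189 CPM. Both neighbours therefore moved the same way in both lines. Igfbp5, a binding protein of the factor, went from 1.35 to 432 CPM, 319.6-fold higher (221 to 482), and Igf1 from 0 to 170 reads, at least 111-fold higher. Igf2r, the receptor that clears Igf2, rose from 227 to 1475 CPM, and Igf1r, the signalling receptor, was at 103 and 130.1 CPM.

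Of 22 imprinted genes compared 12 rose and 3 fell, with a median of 1.90. Mest went from 91.5 to 2376 CPM, 26.0-fold higher (24.8 to 27.2), and Peg10 from 633 to 6491 CPM, 10.2-fold higher (10.1 to 10.4). Dlk1, Cdkn1c and Grb10, which act on growth, rose 34.2-fold, 8.03-fold and 3.90-fold, while Zdbf2 and Magel2 fell, as did Ascl2, from 24 reads to 1. The summed CPM of the list, its non-coding members included, was 4101 at d4 and 26894 at d6, and Igf2, H19 and Peg10 made up most of the sum at d6. Of 19 imprinted genes compared in shLacZ, 5 rose and 3 fell. Airn, a non-coding RNA that lies partly within the Igf2r gene, went from 4 to 322 reads, and without strand in the counting the reads of the overlap cannot be divided between them.

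Extraembryonic endoderm differed between the lines before the step began. The summed CPM of the visceral endoderm list was 570 at d4 and 1070 at d6 in shDIS3L2, and 1745 and 5112 in shLacZ. Of 17 members compared in shDIS3L2, 5 rose and 1 fell, against 11 and none of 18 in shLacZ. Of the 17 compared in both, 13 had the lower fold in shDIS3L2, a share that was not counted over all genes. Afp, the α-fetoprotein gene, rose from 0.966 to 8.01 CPM in shDIS3L2, a fold of 8.29 (5.05 to 14.2), and from 11.8 to 88.8 CPM in shLacZ, 7.5-fold (6.01 to 9.46), so its folds overlapped while its levels did not. Cubn, the endocytic receptor cubilin, was at 115 and 295 CPM in shDIS3L2 and at 417 and 1618 CPM in shLacZ. The parietal endoderm list held 6 rises and 1 fall in either line. Col4a1, a basement membrane collagen, rose from 262 to 1052 CPM in shDIS3L2 and from 641 to 3212 CPM in shLacZ. Because CPM are shares of a total, the part of these transcripts in the values of other genes was not tested.

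Most neural genes compared fell, and most trophoblast genes compared neither rose nor fell. Of 12 neural genes compared 9 fell and 1 rose in shDIS3L2, as in shLacZ with 9 and 1 of 13. Neurod1, Pou4f1 and Fabp7 were among the falls and were under 6 CPM at d4, and Tubb3, which encodes a β-tubulin, was the one that rose, from 21.2 to 93.5 CPM, against 24.4 and 12.0 CPM in shLacZ. Of 7 trophoblast genes compared 1 rose, Plac1 from 0.483 to 68.2 CPM, and 1 fell, Ascl2, which is also imprinted. The summed CPM of the list in shDIS3L2 was 40.2 at d4 and 102.6 at d6. Elf5, Prl3d1 and Tpbpa had 0 reads in shDIS3L2 at both days. Of 28 cell cycle genes 1 rose (Cdkn1c) and 1 fell (Ccne1), and the median was −0.37.

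Of 22 genes of the unfolded protein and integrated stress responses none rose and 2 fell, Trib3 and Chac1, with a median of 0.07. Hspa5, the chaperone BiP of the endoplasmic reticulum, was at 663 and 983 CPM, a fold of 1.48. Of 8 calcium genes that the study names, chosen there on these samples, 1 rose, Rgn from 0 to 52 reads. Of 26 hypoxia and glycolysis genes 4 rose and 2 fell, with the glucose transporter gene Slc2a1 at 391 and 1259.9 CPM and Pfkl at 374 and 95.4 CPM. None of 13 mitochondrially encoded genes rose or fell, and of 81 cytosolic ribosomal protein genes 3 fell (Rplp2, Rpl10l and Rpl39l) and none rose.

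Among 2677 non-coding genes and pseudogenes that passed the same filter, 120 were at least 3-fold higher and 114 at least 3-fold lower at d6 in shDIS3L2, of which 67 and 48 were among 461 long non-coding RNAs. Fendrr, a lateral plate RNA beside Foxf1, went from 0.821 to 27.0 CPM, 32.9-fold (20.2 to 57.3), in the direction of its neighbour. Lhx1os, the antisense neighbour of Lhx1, went from 136 reads to 3, again as the neighbouring gene did. Platr10, a long non-coding RNA of pluripotent cells, went from 28.3 to 1.41 CPM, with shLacZ at 43.6 and 12.5 CPM. These 3 genes were picked after their values were seen. The gene models of Lhx1os (chr11:84525660-84535831) and Lhx1 (chr11:84518284-84525535) do not overlap. Where an antisense gene overlaps its partner, their reads cannot be told apart without strand in the counting.

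The shDIS3L2 and shLacZ steps shared most of their direction and differed in size. Of the genes that rose, 436 rose in both lines, 39.6% of the shDIS3L2 list and 68.7% of the shLacZ list, and 505 fell in both, 50.2% and 65.5%. Of 932 genes that rose in shDIS3L2 and were compared in shLacZ, 880 had a fold above 1 there, with a median log2 fold of 2.59 in shDIS3L2 and 1.48 in shLacZ. Of 957 that fell and were compared in both, 931 had a fold under 1 in shLacZ, with medians of −2.56 and −1.67. Since these genes were picked by their shDIS3L2 fold, a larger value in shDIS3L2 follows in part from the choice. No test of the difference between the lines was possible with single libraries, and the line and the culture cannot be told apart.

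The 10 genes whose step was most positive in shDIS3L2 relative to shLacZ were Postn, Col1a1, Col3a1, Acta2, Tnc, Mmp9, Ccdc80, Adam12, Igf2 and Wisp1. The log2 difference was 8.03 for Postn (counting interval 6.74 to 9.33), 6.13 for Col1a1 (5.41 to 6.84), 5.22 for Acta2 (4.89 to 5.56) and 3.81 for Igf2 (3.62 to 4.00). Tnc, which encodes the matrix protein tenascin-C, went from 0.676 to 39.4 CPM in shDIS3L2 and from 5.01 to 8.27 CPM in shLacZ. Wisp1, a matricellular gene induced by Wnt, stood at 0.918 and 21.4 CPM in shDIS3L2 and at 2.79 and 2.71 CPM in shLacZ. For each of these 10 genes the shDIS3L2 value was the lower of the lines at d4 and the higher at d6, which follows in part from ranking them by the difference of the steps.

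The 10 genes whose step was most negative were Lefty2, Tdgf1, Pou5f1, Fgf8, Eomes, Mixl1, Ntn1, Mesp1, T and Utf1. The log2 difference was −4.70 for Lefty2 (−5.44 to −3.96), −3.81 for Tdgf1 (−4.16 to −3.46), −3.30 for Pou5f1 (−3.54 to −3.05) and −2.90 for T (−3.27 to −2.53). Ntn1, the guidance cue netrin-1, went from 61.9 to 1.6 CPM in shDIS3L2 and from 35.9 to 9.92 CPM in shLacZ, and Utf1, a chromatin factor of pluripotent cells, from 27.3 to 0.660 CPM and from 38.3 to 11.9 CPM. As with the positive differences, the choice of genes favours a crossing of the lines. At d4 T, Eomes, Mixl1, Mesp1, Fgf8, Tdgf1, Lefty2, Ntn1 and Pou5f1 were higher in shDIS3L2 than in shLacZ and at d6 they were lower, whereas Utf1 was lower at both.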

How the data were processed

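RNA-seq was made from PolyA+ RNA of whole aggregates, 14 libraries, 1 per line and day. Per the labels and the study's methods, the authors aligned reads to GRCm38 with Subread and counted them on genes with featureCounts, and the count table they deposited holds raw read counts per gene with no normalization. A table of CPM made with edgeR, deposited by the authors for 16181 genes, was used for gene symbols and gene types and not for any expression value. Gene lengths were copied from the deposited count table. Whether counting used strand is not given in the sources used here.

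CPM were computed here from the counts and each library's total over all genes. A gene was compared where its CPM was at least 1 in 1 of the 2 libraries, and called where the ratio of CPM, with 0.25 counts added in proportion to library size, was at least 3. Intervals of single ratios are 95% Clopper-Pearson intervals of the share of reads in the later library. A gene at 0 in 1 library was set against a floor of 3 counts. The calculations were tested on simulated data, in which known fold changes were recovered. Since each group is 1 library, no test was run, and counts of calls measure these libraries only. Biotypes came from GENCODE for 50462 of 50686 genes, and promoter sequences from RefSeq.

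Genes were named by a rule: Dis3l2, the 15 largest rises and 15 largest falls by the interval bound nearest 1 among genes of at least 10 CPM in 1 of the 2 libraries, the 10 genes each way whose step differed most between lines by the bound nearest 0, and members of gene lists (the largest folds, the highest levels and members whose role made their lack of change relevant). The comparison, the gene lists and the families were chosen with earlier results of these data known. Alternatives were TMM and DESeq2 size factors, protein-coding totals, thinned reads, another prior count, CPM minimum and fold, and calls by the interval bound. Python 3.11.15, numpy 2.4.6, scipy 1.17.1, pandas 2.3.3, matplotlib 3.10.9, R 4.3.3, edgeR 4.0.16 and DESeq2 1.42.0 were used, edgeR and DESeq2 for size factors only. The values of 1 gene are not reported here.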

Additional observations from a re-analysis of the deposited data

Results flagged for a closer look

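One gene passed the 3-fold criterion in opposite directions in the lines. Kcnmb1, which encodes the β1 subunit of the large-conductance calcium-activated potassium channel of smooth muscle, went from 0.676 CPM (14 reads) at d4 to 2.17 CPM (23 reads) at d6 in shDIS3L2, a log2 fold of 1.66, and from 1.81 CPM (13 reads) to 0.376 CPM (5 reads) in shLacZ, a log2 fold of −2.20. The intervals of the ratios were 1.58 to 6.73-fold higher and 1.61 to 17.3-fold lower. The difference between the lines was not tested.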

How the results depend on the processing

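The CPM minimum, the fold asked for and calls by the interval bound each moved counts of calls by over 1.5 times. With no CPM minimum, 1950 genes were higher and 2521 lower in shDIS3L2, and 1689 and 1919 in shLacZ, and with a minimum of 5 CPM the counts were 728 and 560, and 398 and 349. A fold of at least 2 gave 1835 and 1779, and 1208 and 1410. Where the interval bound itself had to pass 3-fold, 533 genes were lower in shDIS3L2, and 268 were higher and 293 lower in shLacZ, against 786 higher in shDIS3L2. Under TMM 1096 genes were higher and 990 lower in shDIS3L2, of which 1085 and 990 were also called with total counts, and with DESeq2 size factors 1146 and 918. In shLacZ TMM gave 724 and 644, the reverse order of the 635 and 771 called with total counts, because it moved the median log2 fold of all genes from −0.06 to 0.08, while in shDIS3L2 the median was −0.05 under both. Protein-coding totals, thinned reads and a prior count of 2 kept each count within 1.5 times its value. Of the counts per gene list, 631 stayed within that range over these alternatives and 89 did not. Of single ratios, 1997 moved by less than their counting interval and 79 by more. Among the genes that rose or fell 0 changed sign, and changes of sign among the other genes were not counted. No replicate could be left out, and depth limits what can be said of genes with few reads at d4, whose folds have wide intervals. No paired analysis was possible because each line had 1 library a day and no test was run.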

Other observations

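Gene position and length were compared with the shDIS3L2 step from d4 to d6 as a description. The median length of the gene model was 4239 bases for genes that rose, 3786 for those that fell and 4233 for all compared, and across genes, which are not independent replicates, the Spearman correlation of log2 fold with length was 0.0539. By chromosome, the lowest median log2 folds in shDIS3L2 were −0.23 for chromosome 17 and −0.22 for chromosome 7, with −0.14 and −0.10 in shLacZ.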
